A study of Mus musculus with 4 samples.

Results

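The nuclei described here were chosen by RNA for genes of type B intercalated cells in single-nucleus RNA-seq (snRNA-seq) of mouse kidney medulla. A nucleus was a member where *Slc26a4*, *Slc4a9* and *Insrr* together gave at least 2 unique molecular identifiers (UMIs, 1 per counted RNA molecule) and at least 1 UMI came from *Atp6v1g3*, *Atp6v0d2*, *Foxi1* or *Clnk*. In all, 482 of 27343 nuclei met this rule, with 128 and 108 from the controls and 137 and 109 from the knockouts. The label of type B intercalated cells held for only some of them. *Slc26a4*, the defining gene, had at least 1 UMI in 276 members and none in the other 206, and 187 of those 206 (90.8%) carried 2 or more UMIs of the type A genes *Slc4a1*, *Aqp6* and *Kit*. The nuclei are therefore called members, Slc26a4-positive members and Slc26a4-negative members.

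Intercalated cells of the connecting tubule and collecting duct move acid and base with a vacuolar proton pump and carbonic anhydrase. Type A cells place the pump in the apical membrane and the anion exchanger AE1, encoded by *Slc4a1*, in the basolateral membrane, and so secrete acid. Type B cells have the reverse polarity, carry pendrin (*Slc26a4*) apically and AE4 (*Slc4a9*) basolaterally, and secrete bicarbonate while taking up chloride.

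Libraries were made from male mice aged 12 weeks, 1 per mouse, from 2 Hoxb7Cre+;Tfap2a fl/fl mice (knockout) and 2 Cre-negative littermates with the same floxed alleles (control). *Hoxb7Cre* recombines in the ureteric lineage, which gives rise to collecting duct and lower urinary tract epithelium, so the connecting tubule and other nephron segments are not its main target. Cortex was trimmed from a kidney slice to enrich medulla, and the tissue had lain in RNAlater before freezing. Where values of the 4 mice are listed, the order is control 1, control 2, knockout 1, knockout 2. The comparison asked how loss of the AP-2 transcription factor *Tfap2a* relates to these nuclei, with the mouse as the replicate.

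Total UMIs per library were 42138345, 24998797, 44964099 and 22179410, and the members of a mouse summed to between 310674 and 432216 UMIs. The median member held 2568 UMIs, against 2630 in the 26397 nuclei that lacked *Slc26a4*, *Slc4a9* and *Insrr*. Median mitochondrial UMIs of the libraries were 1.66%, 0.671%, 1.05% and 0.417%. Any pair of libraries shared between 7 and 18 barcodes, at most 0.331% of the smaller library. Despite the trimming, 16689 nuclei outside the members held at least 5 UMIs of a list of proximal tubule genes.

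Promoters are shown for 3 genes of the membership rule (*Slc26a4*, *Atp6v1g3* and *Foxi1*, the last encoding the forkhead factor that specifies intercalated cells) and for *Dmrt2*, a type A marker gene, because these genes define and divide the members and *Tfap2a* encodes a DNA-binding factor. Each window runs 5′ to 3′ on the strand of the gene from 250 bases before to 50 after the start, as given by RefSeq for GRCm38.p6, the same assembly as mm10. Capitals mark the AP-2 motif GCCNNNGGC, searched on both strands. The positions are chr12:31559935-31560234 (minus strand) for *Slc26a4*, chr1:138273488-138273787 (plus) for *Atp6v1g3*, chr11:34208040-34208339 (minus) for *Foxi1* and chr19:25672161-25672460 (plus) for *Dmrt2*.
Slc26a4: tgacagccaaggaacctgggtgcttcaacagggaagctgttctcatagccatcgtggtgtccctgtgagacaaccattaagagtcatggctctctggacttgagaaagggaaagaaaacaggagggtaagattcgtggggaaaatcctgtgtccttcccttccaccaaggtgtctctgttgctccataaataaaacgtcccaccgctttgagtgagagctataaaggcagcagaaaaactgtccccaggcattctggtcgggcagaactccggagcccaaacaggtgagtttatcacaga
Atp6v1g3: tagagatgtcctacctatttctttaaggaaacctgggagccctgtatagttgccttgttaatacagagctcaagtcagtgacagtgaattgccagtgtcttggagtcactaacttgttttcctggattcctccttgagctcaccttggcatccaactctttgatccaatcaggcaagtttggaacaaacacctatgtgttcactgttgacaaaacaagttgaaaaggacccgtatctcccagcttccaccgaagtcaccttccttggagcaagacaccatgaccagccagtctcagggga
Foxi1: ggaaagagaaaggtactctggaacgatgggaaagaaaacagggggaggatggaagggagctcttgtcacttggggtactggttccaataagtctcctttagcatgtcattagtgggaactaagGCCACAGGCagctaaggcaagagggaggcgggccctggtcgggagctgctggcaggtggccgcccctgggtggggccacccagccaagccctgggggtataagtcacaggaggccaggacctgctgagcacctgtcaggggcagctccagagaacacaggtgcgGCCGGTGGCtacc
Dmrt2: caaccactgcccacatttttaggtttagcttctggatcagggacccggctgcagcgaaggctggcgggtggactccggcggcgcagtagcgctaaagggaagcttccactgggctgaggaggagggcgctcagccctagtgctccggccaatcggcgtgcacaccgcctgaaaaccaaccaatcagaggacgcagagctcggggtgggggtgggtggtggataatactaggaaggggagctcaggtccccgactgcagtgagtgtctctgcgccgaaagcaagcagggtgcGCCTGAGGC
The *Foxi1* window held 2 matches, starting at bases 124 and 288, and the *Dmrt2* window held 1, starting at base 292, counted from 1 at the 5′ end. No match lay in the windows of *Slc26a4* and *Atp6v1g3*, nor in those of *Hmx2*, *Aqp6* and *Clnk*. *Kit* held 1. Of 32851 promoter windows of this length, 16.6% held the AP-2 motif. The forkhead motif GTAAACA, which 3.65% of the windows held, was in none of those searched for these genes. A match is a run of letters and not a measured binding site.

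The genes of the rule differed in how widely members carried them. *Slc4a9* was detected in 97.5% of members, *Slc26a4* in 57.3% and *Insrr*, a receptor tyrosine kinase that senses alkaline pH, in 54.4%. All 3 genes occurred together in 240 members (49.8%), whereas 190 members (39.4%) carried only *Slc4a9*. *Slc26a4* alone was found in 5 and *Insrr* alone in 1. Of the intercalated genes, *Atp6v1g3* was in 94.6% of members and *Atp6v0d2* in 91.7%. These values chose the members and are given as a description without a test.

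The same transcripts were found at low shares outside the members. The nuclei outside the members with at least 5 UMIs of the proximal tubule list (median 3096 UMIs) were chosen by that list alone and can include other segments. Among them, *Slc26a4* was found in 1.25%, *Slc4a9* in 0.318%, *Hmx2* in 0.270% and *Atp6v1g3* in 4.59%. Each share was below that of the members. For *Slc26a4*, *Slc4a9* and *Atp6v1g3* this follows from the choice of nuclei, since they are rule genes and nuclei that met the rule were left out. In barcodes with under 100 UMIs, taken as free RNA, *Slc26a4* stood at a mean of 47.0 CPM (counts per 1000000 UMIs) and *Slc4a9* at 26.3 CPM. The part of free RNA and of doublets in these shares was not tested.

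*Slc26a4* (mm10 chr12:31519814-31560055) divided the members. It had 0 UMIs in 206 members, exactly 1 UMI in 4 and 10 or more in 234. The rule itself leaves out nuclei with few UMIs, since 17 nuclei whose single UMI of the 3 genes was *Slc26a4* lay outside it. The division by this gene was chosen after its values were seen, and differences between the groups it forms are described without a test. *Hmx2*, a homeobox gene of the type B marker list that the rule did not use, was found in 177 of 276 Slc26a4-positive members (64.1%) and in 2 of 206 Slc26a4-negative members (0.971%). *Slc4a1* or *Aqp6*, the latter encoding a vesicle aquaporin of type A cells, was found in 7 Slc26a4-positive members (2.54%) and in 185 Slc26a4-negative members (89.8%). The opposed patterns of the markers appeared in all 4 mice, as the plot of UMIs per nucleus shows.

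**Figure D1:**
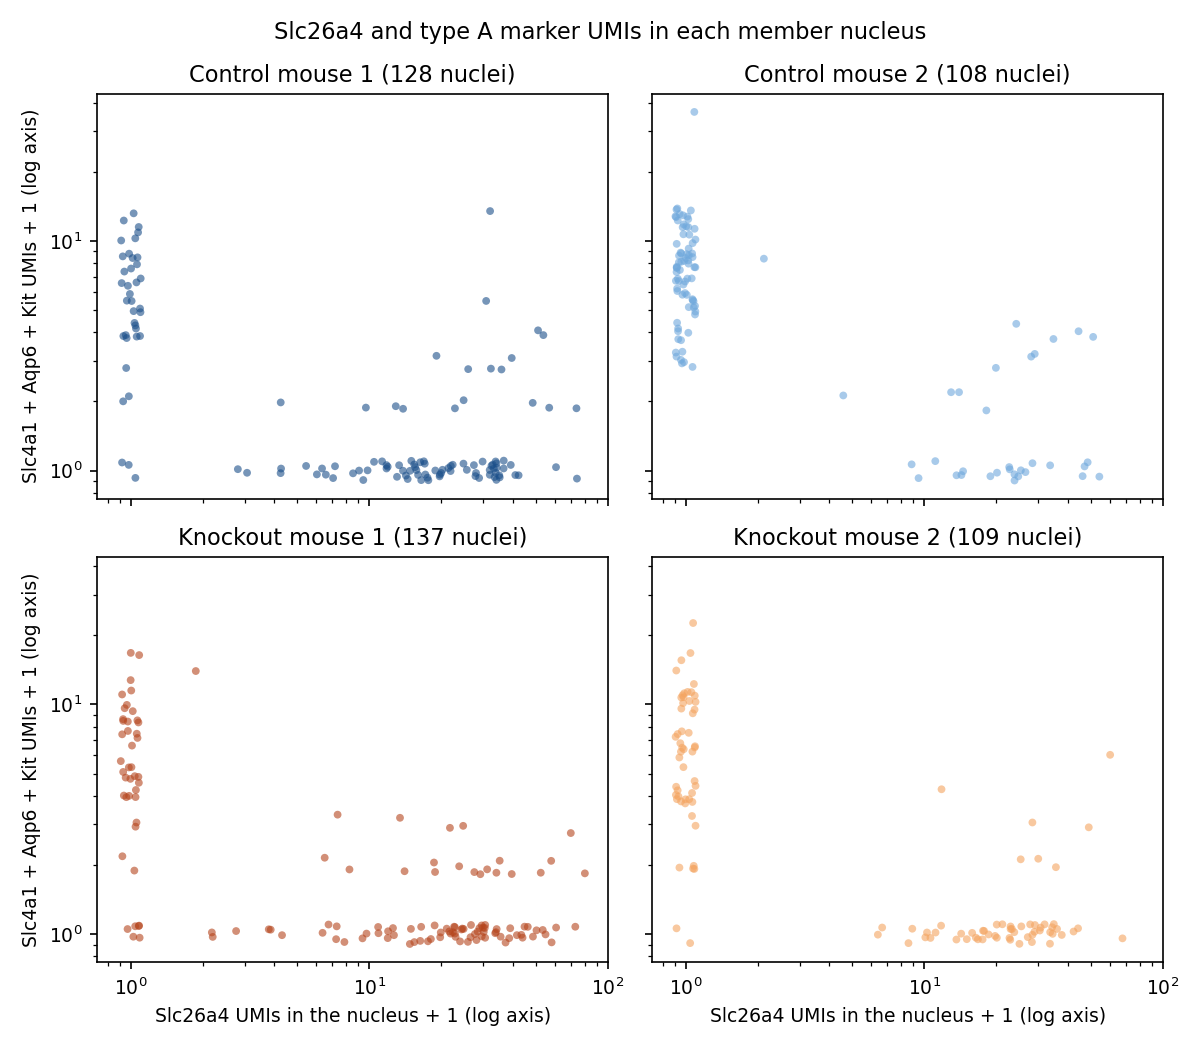
Each point is 1 of the 482 members, with UMIs of *Slc26a4* plus 1 on the x axis and summed UMIs of *Slc4a1*, *Aqp6* and *Kit* plus 1 on the y axis (both log axes, points slightly displaced so that equal counts can be seen), 1 panel per mouse. Most nuclei lie along 1 of the axes, and the column at an *Slc26a4* count of 0, with 206 nuclei in all, is fullest in control mouse 2.

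The threshold of the rule fell among the Slc26a4-negative nuclei. Of 61 members with exactly 2 UMIs of the 3 genes, 3 carried *Slc26a4*, 57 carried *Slc4a9* and 50 had 2 or more UMIs of the type A genes. Just outside, 124 nuclei had 1 UMI of the 3 genes beside an intercalated gene, of which 89 carried *Slc4a9* and 85 had 2 or more UMIs of the type A genes. Another 13 nuclei had 2 or more UMIs of the 3 genes but none of an intercalated gene, and all 13 carried *Slc26a4*.

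Some members were called doublets or held UMIs of marker genes of other nephron segments, the source of which was not tested. Scrublet scores called 50 members doublets (10.4%), against 5.60% of all nuclei, and the shares were alike in Slc26a4-positive (10.5%) and Slc26a4-negative members (10.2%). At least 5 UMIs of the proximal tubule list were found in 83 members, 46 of them in knockout mouse 1. The summed level of the connecting tubule list (*Calb1*, *Slc8a1*, *Trpv5* and *S100g*) was 2475, 283, 6342 and 1989 CPM of the summed nuclei in members. It thus differed more between the mice of 1 genotype than between the genotypes. For the principal cell list, the range over mice was 435 to 1006 CPM in members, against 7183 to 9326 CPM in 1758 principal and connecting tubule nuclei. List sums reached at most 85.5 CPM for endothelial, 51.2 for immune, 30.1 for interstitial and 12.9 for podocyte markers, of which 1 of 7, 3 of 6, 2 of 6 and 2 of 4 were at 0 UMIs. The part of these transcripts in the results below was not tested.

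The levels of the 3 genes that chose the members are given first, for both groups. *Slc26a4* stood at 7033, 6123, 7165 and 7542 CPM in Slc26a4-positive members, and at 0 by definition in Slc26a4-negative members. *Slc4a9* gave 2381, 3531, 2400 and 2401 CPM in Slc26a4-positive members, and 1691, 1527, 1611 and 1609 CPM among Slc26a4-negative members. Every value of the Slc26a4-positive members was higher than every value of the Slc26a4-negative members. *Insrr* stood at 784, 991, 790 and 1159 CPM in Slc26a4-positive members and at 115, 19.9, 30.2 and 22.9 CPM in Slc26a4-negative members, again without overlap.

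Type A genes showed the reverse. *Slc4a1* reached 538, 697, 715 and 518 CPM in Slc26a4-negative members, against 0 to 22.9 CPM in Slc26a4-positive members. *Aqp6* lay between 730 and 1014 CPM against 0 to 30.5 CPM. All 6 genes of the type A list (*Slc4a1*, *Aqp6*, *Kit*, *Dmrt2*, *Slc26a7* and *Adgrf5*) were higher in Slc26a4-negative members without overlap of the mice, while *Hmx2*, the only gene of the type B list that neither the rule nor the division used, was higher in Slc26a4-positive members without overlap. *Kit*, a receptor tyrosine kinase, was the least exclusive, with 19.9% of Slc26a4-positive members carrying it against 79.1% of Slc26a4-negative members.

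Of 5583 genes detected in at least 10% of members, 14.8% were higher in Slc26a4-positive members in all 4 mice and 13.9% were lower in all 4. A gap between all values of the groups was seen for 6.59% (higher) and 6.22% (lower). The lists below are read against these shares, and the Slc26a4-negative members held fewer UMIs per nucleus, with a median of 2183 against 2963.

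Subunits of the vacuolar proton pump, which acidifies urine or interstitium depending on the membrane that holds it, were on balance higher in Slc26a4-positive members. Of 20 listed genes detected in at least 10% of members, 2 of which the rule used (*Atp6v0d2* and *Atp6v1g3*), 9 were higher in Slc26a4-positive members in all 4 mice, 7 of them without overlap, and 0 were lower in all 4. The median log2 ratio of CPM plus 10 was 0.45, against 0.03 over all genes. *Atp6v1g3*, a G subunit of intercalated cells, stood at 3925 ± 796 CPM (SD, n = 4 mice) in Slc26a4-positive members and 1818 ± 304 CPM in Slc26a4-negative members. *Atp6v1c2* gave 1067 ± 169 CPM and 721 ± 75.5 CPM, and the accessory subunit gene *Atp6ap2* gave 526 ± 181 CPM and 221 ± 45.2 CPM. Neither gene overlapped between the groups. Other subunits stood at like levels, among them *Atp6v1b1* with 433 ± 67.5 CPM and 447 ± 64.4 CPM, and *Atp6v0a4* with 1157 ± 125 CPM and 1214 ± 315 CPM. *Atp6v1b1* was at 12.8 CPM in the nuclei lacking *Slc26a4*, *Slc4a9* and *Insrr*, so RNA of this subunit was higher in both groups of members than there.

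Transporters and carbonic anhydrases differed gene by gene. Of 20 detected in at least 10% of members, 5 were higher in Slc26a4-positive members in all 4 mice and 4 were lower, counting *Slc26a4* and *Slc4a9*, which the rule used. *Car12*, a membrane-bound carbonic anhydrase, was at 4114, 4606, 4476 and 3649 CPM in Slc26a4-positive members, and at 1601, 1602, 815 and 1106 CPM in Slc26a4-negative members. The groups were far apart for *Car12* in each mouse, whereas cytosolic *Car2* differed little, with 1149 ± 190 CPM and 1046 ± 209 CPM (SD, n = 4). The chloride transporter gene *Clcn3* was higher in Slc26a4-positive members (405 ± 25.9 against 183 ± 38.9 CPM) and *Clcn5* was lower (means of 376 and 509 CPM), both without overlap. *Rhbg*, an ammonia transporter gene, was likewise lower (96.6 ± 35.7 against 267 ± 77.4 CPM). *Slc26a7*, a basolateral anion exchanger gene of type A cells, gave 1.39 CPM in Slc26a4-positive and 549 CPM in Slc26a4-negative members.

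**Figure D2:**
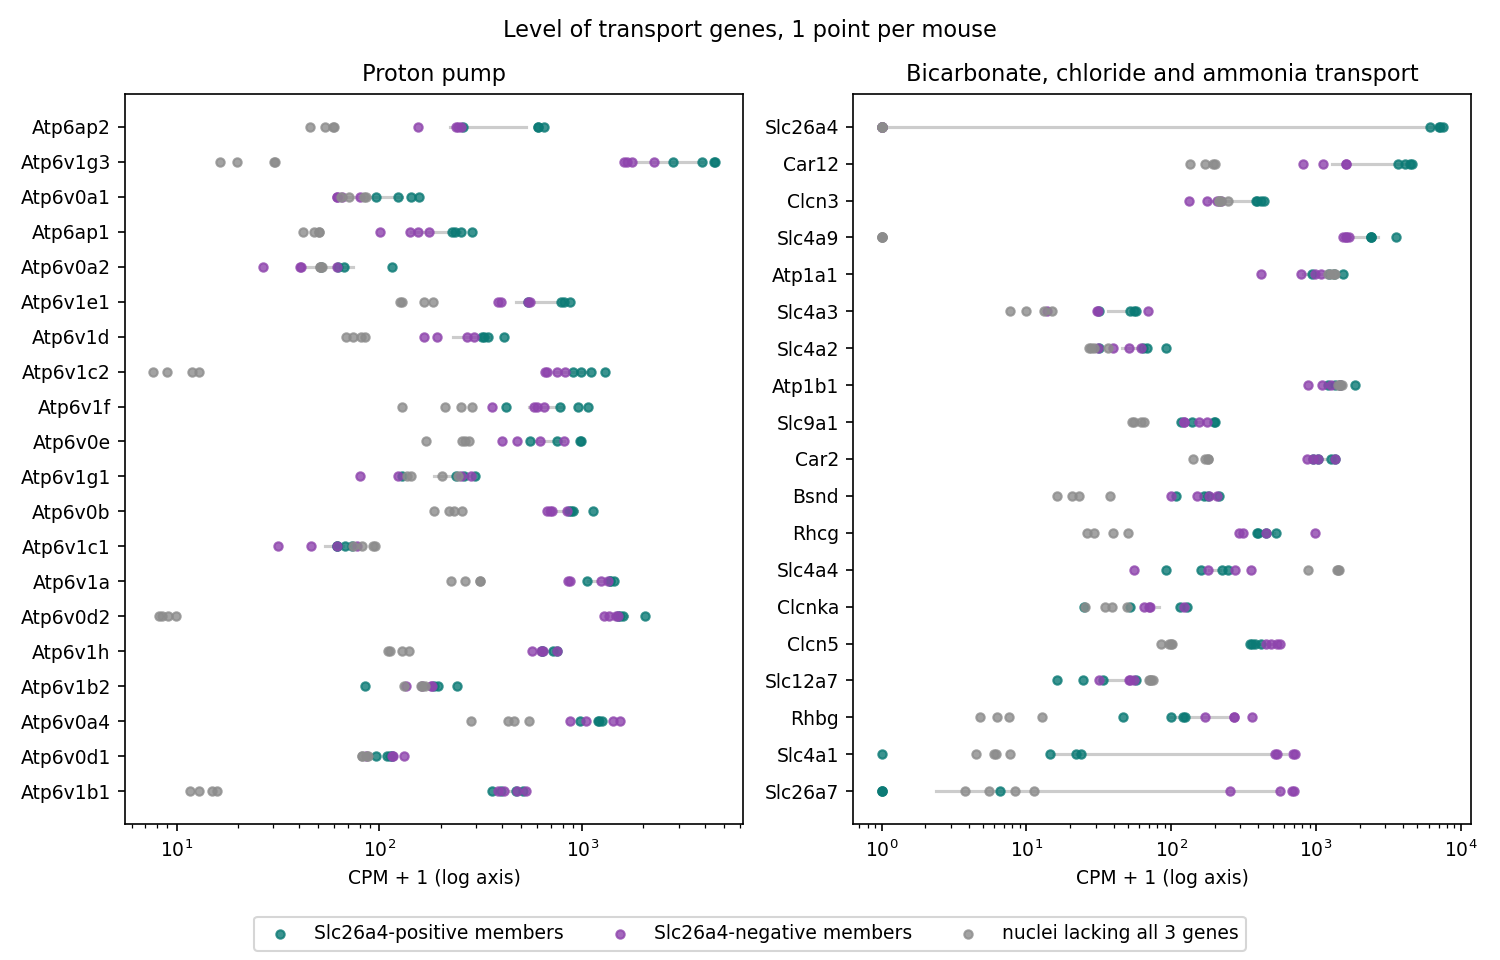
CPM plus 1 (log axis) of proton pump genes (left) and transport genes (right, 1 gene not shown) detected in at least 10% of members, with 1 point per mouse for Slc26a4-positive members, Slc26a4-negative members and nuclei lacking *Slc26a4*, *Slc4a9* and *Insrr*. Grey lines join the means of both groups of members. *Car12*, *Clcn3* and *Atp6v1g3* are higher in Slc26a4-positive members of every mouse, *Slc4a1*, *Slc26a7* and *Rhbg* lower.

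Hormone and salt signaling genes also divided the members. Of 16 detected in at least 10% of members, 7 were higher in Slc26a4-positive members in all 4 mice, including *Insrr*, and 5 were lower. *Casr*, the calcium-sensing receptor gene, was at 341, 374, 270 and 256 CPM in Slc26a4-positive members, and at 12.8, 29.9, 10.1 and 0 CPM in Slc26a4-negative members. *Avpr1a*, the vasopressin V1a receptor gene, was at 165 ± 57.5 against 41.0 ± 15.2 CPM (SD, n = 4). *P2ry14*, the receptor gene for UDP-glucose, showed the opposite, with 5.65 ± 1.75 CPM in Slc26a4-positive and 224 ± 48.0 CPM in Slc26a4-negative members. None of these genes overlapped between the groups. *Nr3c2*, the mineralocorticoid receptor gene, was detected in 86.5% of members, at 886 ± 202 and 1188 ± 143 CPM.

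The Notch ligand genes *Jag1* and *Dll1* were higher in Slc26a4-positive members. *Jag2* and *Dll4*, the other ligand genes of the list, are not described here. *Jag1* was at 290, 313, 315 and 301 CPM in Slc26a4-positive members, and at 38.4, 34.8, 80.5 and 53.4 CPM in Slc26a4-negative members. *Dll1* gave 78.4 ± 49.6 against 5.06 ± 7.19 CPM (SD, n = 4). Neither *Jag1* nor *Dll1* overlapped between the groups, but *Dll1* rested on few UMIs in Slc26a4-negative members. Of 9 Notch genes detected in at least 10% of members, 4 were higher in Slc26a4-positive members in all 4 mice and 1 was lower. Among 12 genes of the Wnt and adhesion list, 2 were higher and 1 was lower. The Wnt ligand gene *Wnt4* gave 125 ± 60.9 against 12.7 ± 7.53 CPM.

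Of 15 transcription factor genes, 7 were higher in Slc26a4-negative members in all 4 mice and 4 were higher in Slc26a4-positive members, with 2 in each direction without overlap. *Hmx2* was at 672, 1304, 613 and 540 CPM in Slc26a4-positive members, and at 38.4 CPM in control mouse 1 and 0 in the other mice in Slc26a4-negative members. *Dmrt2* gave 0.845 against 156 CPM and *Pax2*, a regulator of kidney development, 88.1 ± 23.6 against 449 ± 250 CPM. *Foxi1* was at 322 ± 74.1 and 224 ± 52.1 CPM, and *Tfcp2l1*, a factor of the distal nephron and collecting duct, was at 2177 ± 150 and 2234 ± 126 CPM, a smaller difference than the spread between mice. Of the 4 genes of the immediate early and stress list that reached 10% of members, 1 was higher in Slc26a4-positive members in all 4 mice and 0 were lower.

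Ranked over all genes, those with the largest log2 ratio in Slc26a4-positive over Slc26a4-negative members after *Slc26a4* were *Thsd7a* (6.26), *Plxna4* (6.17), *Hmx2* (5.65), *Syt7* (5.32) and *Kcnq3* (5.24), all on the scale of CPM plus 10. *Igfbp5*, an insulin-like growth factor binding protein gene, followed in the same ranking (5.05) and was found in 76.8% of Slc26a4-positive and 3.88% of Slc26a4-negative members. Highest in the other direction were *Slc26a7* (5.54), *Aqp6* (5.27), *Slc35f1* (4.94), *Slc4a1* (4.81), *Pdlim3* (4.44) and *Mme* (4.43), the last encoding the membrane peptidase neprilysin. Against the nuclei lacking *Slc26a4*, *Slc4a9* and *Insrr*, all members together led, beyond the rule genes, with *Tmem117* (log2 ratio 5.91), *Syn2* (5.65), *Atp6v1c2* (5.61), *Rcan2* (5.60) and *Rorb* (5.56). *Tmem117* was found in 98.8% of members and 13.5% of those other nuclei.

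A comparison set of 136 nuclei met the type A genes of the rule with no UMI of *Slc26a4*, *Slc4a9* or *Insrr*, and so left out type A-marker nuclei that carried *Slc4a9*. Compared with it, members were highest, beyond the 3 rule genes, in *Hmx2* (log2 ratio 5.22), *4930469K13Rik* (5.19), *Kcnq3* and *Thsd7a* (4.68). The set was highest over members in *Npy* (3.13) and in the principal cell genes *Aqp2*, *Aqp4* (2.72) and *Fxyd4* (2.69). Its principal cell list summed to a mean of 3980 CPM, against 654 CPM in members, and to between 968 and 7182 CPM in single mice. *Aqp2* was found in 29.4% of its nuclei.

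The share of members among all nuclei was 1.65%, 1.99%, 1.71% and 1.76%, with the knockout mice between the controls. The exact 95% Clopper-Pearson intervals, which cover counting error only, ran from 1.38% to 1.96%, 1.63% to 2.40%, 1.44% to 2.02% and 1.45% to 2.12%. The difference of means was -0.0828 percentage points, with p = 1 in a two-sided exact permutation test over mice, where the smallest possible p is 0.333. Among nuclei with under 2 UMIs of the proximal tubule list, the shares were 3.31%, 3.30%, 3.53% and 4.44%, with both knockout mice above both controls. They rested on 32 of 968, 67 of 2030, 19 of 538 and 91 of 2049 nuclei. The interval of knockout mouse 1 ran from 2.14% to 5.46%. The difference was 0.683 percentage points, with p = 0.333 in the same exact permutation test. Of members and type A comparison nuclei together, members made up 72.3%, 78.3%, 83.0% and 79.0% in the same order, a difference of 5.72 percentage points with p = 0.333 in the same exact permutation test.

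The Slc26a4-positive part of the members varied more between mice than between genotypes. It was 71.1% (91 of 128), 30.6% (33 of 108), 69.3% (95 of 137) and 52.3% (57 of 109). Control mouse 2 stood lowest, and its interval of 22.1% to 40.2% lay below the intervals of the other mice. As a share of all nuclei, Slc26a4-positive members were 1.18%, 0.608%, 1.19% and 0.923%, and Slc26a4-negative members 0.478%, 1.38%, 0.525% and 0.842%, so control mouse 2 had the lowest Slc26a4-positive and the highest Slc26a4-negative share. Its intervals overlapped those of knockout mouse 2 in both.

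**Figure D3:**
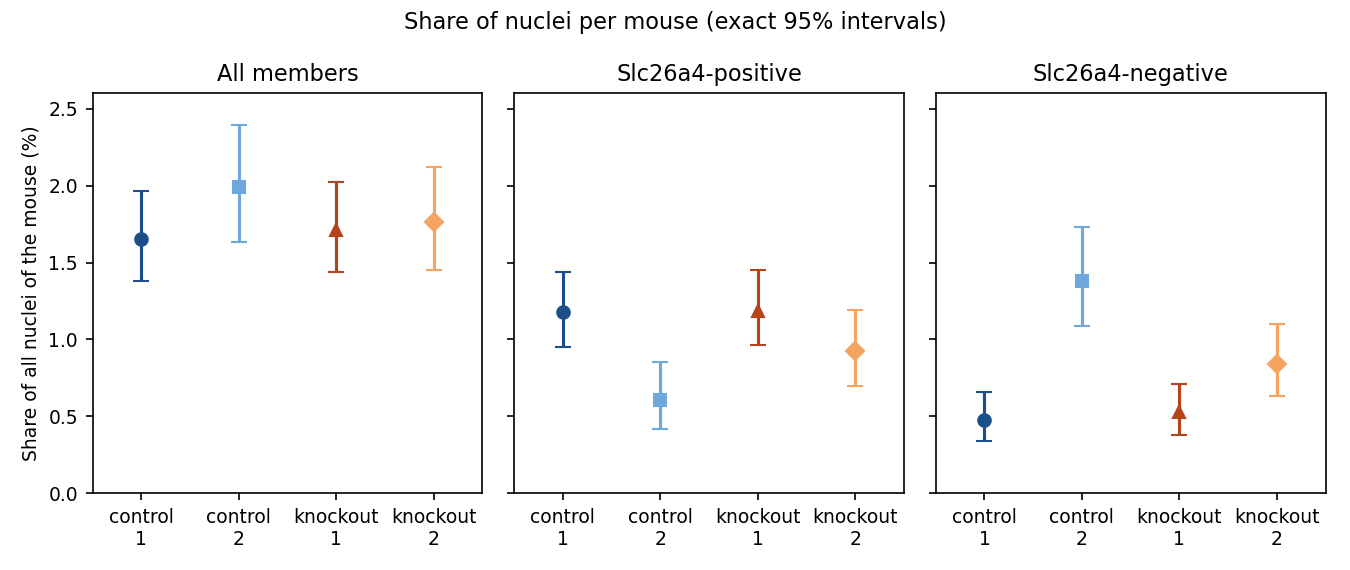
Share of all nuclei of a mouse (%) taken by all members, by Slc26a4-positive members and by Slc26a4-negative members, 1 point per mouse with exact 95% intervals. All members lie between 1.65% and 1.99%, while control mouse 2 is lowest for Slc26a4-positive members (0.608%) and highest for Slc26a4-negative members (1.38%).

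*Tfap2a* (chr13:40713802-40738238), the targeted gene, gave 28, 26, 25 and 22 UMIs in members. In CPM these are 74.8, 78.3, 57.8 and 70.8, with the knockout values slightly below both controls. Its log2 fold change was -0.25 ± 0.40 (SE), with an adjusted p of 0.998 by the quasi-likelihood test of edgeR, Benjamini-Hochberg adjusted over the genes tested. The libraries were read from the 3′ end, and transcripts without the deleted exons can still give such UMIs, so the counts do not check the labels. *Tfap2b*, its paralog, gave 16, 3, 20 and 20 UMIs in the same order, the control mice lying lower than the knockout mice, and a log2 fold change of 1.04 ± 0.57 (edgeR adjusted p = 0.998). *Alcam*, a cell adhesion gene, was high in members, with 1486, 1879, 1268 and 1674 CPM and a log2 fold change of -0.19 ± 0.41 (edgeR adjusted p = 0.998). *Wnt9b*, a Wnt ligand gene of collecting duct, gave 3 UMIs in all and was not tested.

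Across 10837 genes with at least 10 UMIs in members, edgeR called 0 different between knockout and control mice at an adjusted p under 0.05 (0%), and DESeq2 also called 0. At an unadjusted p under 0.05, edgeR gave 238 genes (2.2%), 119 in each direction (1.1% each), and DESeq2 gave 46. Slc26a4-positive members alone gave 0 of 9632 adjusted and 187 unadjusted (1.94%, of which 1.07% higher and 0.872% lower), with 27 by DESeq2, and Slc26a4-negative members 0 of 8041 and 274 (3.41%, of which 1.78% higher and 1.63% lower), with 38 by DESeq2. On simulated counts of this size, 37% of 4-fold and 2% of 2-fold changes were recovered in members, so that most changes of 2-fold could not have been called.

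The gene with the smallest p was *Coch* (chr12:51593283-51606619), which encodes cochlin, a secreted matrix protein. It gave 20, 30, 1 and 0 UMIs in members. The control and knockout mice did not overlap, as was so for 14.7% of genes tested in the higher direction and 12% in the lower. All 51 UMIs lay in Slc26a4-positive members, in 12 and 9 nuclei of the control mice and 1 nucleus of a knockout mouse, and 5 nuclei held 27 of them. Over the pooled UMIs of each genotype the ratio of control to knockout was 52.6, with a 95% counting interval of 9.02 to 2118. That interval treats UMIs as independent, leaves out the spread between mice and nuclei, and belongs to a gene picked for its small p. edgeR's log2 fold change was -5.40 ± 0.80 with an adjusted p of 0.142, which ranged over 16 alternatives from 4.8e-09 with the replicate number as a block to 1 with DESeq2. In nuclei lacking *Slc26a4*, *Slc4a9* and *Insrr*, *Coch* stood at 1.42, 1.53, 1.25 and 1.11 CPM.

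The other named genes with lower values in knockout mice were *Ranbp3l*, *Pde10a*, *Npas3* and *Adora1*. *Pde10a*, a cyclic nucleotide phosphodiesterase gene, gave 38, 25, 9 and 4 UMIs, and 73 of its 76 UMIs lay in Slc26a4-positive members. Its log2 fold change was -2.32 ± 0.48 (edgeR adjusted p = 0.868). *Ranbp3l* gave 39, 74, 16 and 5 UMIs in the same order, with a log2 fold change of -2.53 ± 0.52 (edgeR adjusted p = 0.868). It was also lower in knockout mice among nuclei lacking *Slc26a4*, *Slc4a9* and *Insrr*, at 455 and 516 CPM against 207 and 207 CPM. *Adora1*, the adenosine A1 receptor gene, gave 15, 18, 6 and 2 UMIs and a log2 fold change of -2.09 ± 0.57 (edgeR adjusted p = 0.998).

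*Npas3* (chr12:53248026-54072173), a transcription factor gene, gave 9, 4, 0 and 0 UMIs. Over pooled UMIs it was 4.56-fold lower when the knockout group is set to the floor of 3 UMIs. That value leaves out counting error and the spread between mice, and belongs to a gene picked for its small p. In the nuclei outside the members with at least 5 UMIs of the proximal tubule list, *Npas3* stood at 210, 164, 1.99 and 2.33 CPM. Its low values in the knockout mice were thus shared by nuclei outside the members.

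Named genes with higher values in knockout mice rested in part on few nuclei. *Egfem1* gave 8, 2, 53 and 29 UMIs, and 5 nuclei held 71 of the 92. *Slc5a12*, a lactate transporter gene of proximal tubule, gave 21, 8, 66 and 54 UMIs, 87 of 149 in 5 nuclei. Their log2 fold changes were 2.94 ± 0.54 (edgeR adjusted p = 0.588) and 2.01 ± 0.44 (edgeR adjusted p = 0.998). *Gm47283* was spread more evenly, with 13, 8, 40 and 28 UMIs in 10, 8, 31 and 25 nuclei and a log2 fold change of 1.63 ± 0.43 (edgeR adjusted p = 0.998). *Snx10*, a sorting nexin gene, had 0, 0, 10 and 5 UMIs, each in a separate nucleus, and was 4.75-fold higher over pooled UMIs against the floor. *Gm14764* had 0, 0, 6 and 8 UMIs and was 4.44-fold higher in the same way. Both values carry the limits given for *Npas3*, and neither gene had an adjusted p under 0.05 in edgeR.

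**Figure D4:**
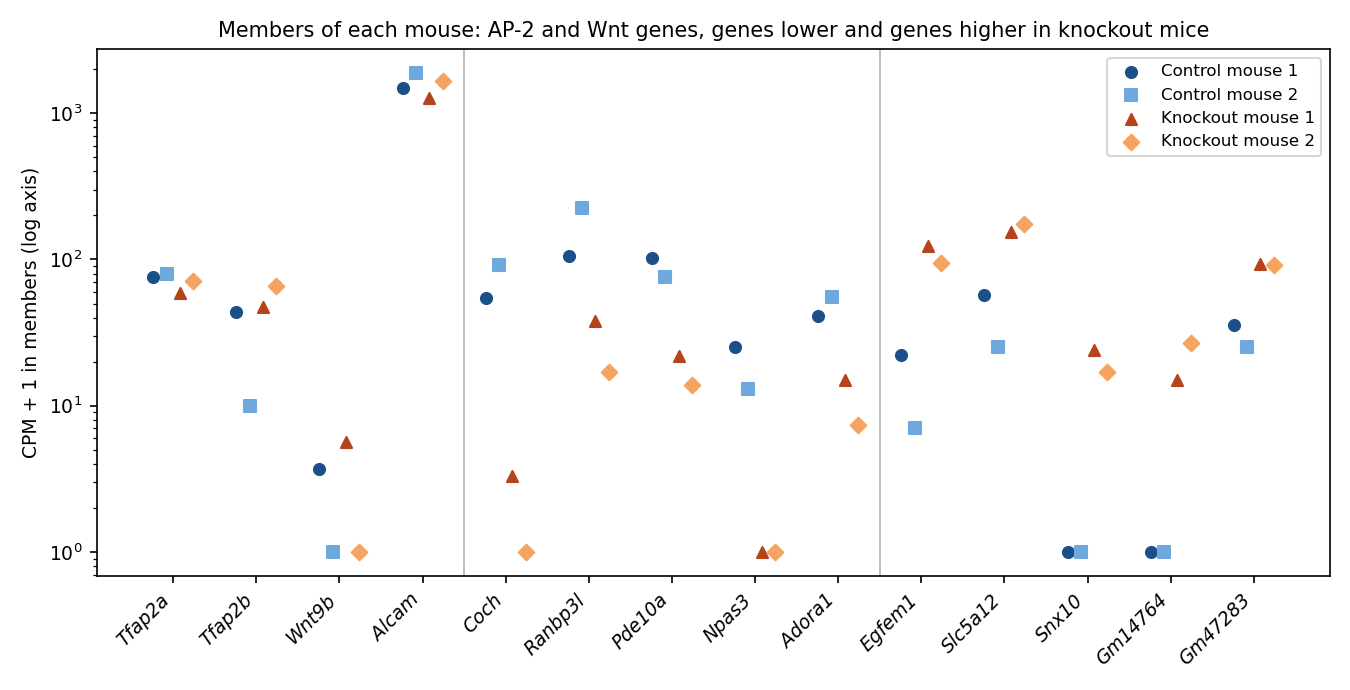
CPM plus 1 (log axis) in the members of each mouse for *Tfap2a*, *Tfap2b*, *Wnt9b* and *Alcam* (left), the 5 named genes lower in knockout mice (middle) and the 5 higher (right), 1 point per mouse. The control and knockout points of the named genes are apart by the rule that chose them, and none reached an adjusted p under 0.05 in edgeR.

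Within Slc26a4-positive members, *Kcnq3*, a subunit gene of the M-type potassium channel found almost only in them, gave 171, 127, 74 and 53 UMIs. In CPM it stood at 578, 968, 222 and 295, with both knockout mice below both control mice, and the log2 fold change was -1.56 ± 0.42 (edgeR adjusted p = 1). *Rgs5*, a regulator of G protein signaling, gave 42, 11, 12 and 3 UMIs there and none in Slc26a4-negative members, with a log2 fold change of -2.00 ± 0.52 (edgeR adjusted p = 1). Other genes named there were *Junos*, lower at -2.73 on the log2 scale, and *1700011H14Rik*, *Ttr*, *Cyp2d12*, *Snx10* and *Egf*, with higher values.

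Within Slc26a4-negative members, *Maoa*, which encodes monoamine oxidase A, gave 6, 37, 0 and 1 UMIs. Its log2 fold change was -4.77 ± 0.92 (edgeR adjusted p = 0.508), against 0.63 ± 0.80 in Slc26a4-positive members. *Mlph*, which links melanosomes and other vesicles to myosin, gave 9, 15, 0 and 2 UMIs and a log2 fold change of -3.26 ± 0.87 (edgeR adjusted p = 0.998). Genes higher in knockout mice included *Klk1*, the tissue kallikrein gene of the connecting tubule (9, 24, 30 and 221 UMIs, of which 5 nuclei held 225 of 284), and *Clu*, the clusterin gene (5, 1, 18 and 47 UMIs). Among Slc26a4-negative members the connecting tubule list stood at 1870, 308, 2013 and 4102 CPM, like these genes highest in knockout mouse 2, and its part in them was not tested. *Slc12a1*, the thick ascending limb cotransporter gene, was among those with lower values there, at 25, 160, 11 and 23 UMIs.

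No listed gene passed the adjusted threshold between the genotypes. Among 20 proton pump genes tested in members, 16 had a log2 fold change above 0 and 4 below. Over all genes tested, 5708 lay above 0 and 5129 below. The pump genes had a median of 0.10 against 0.03 over all genes, and 0 had an unadjusted p under 0.05 in edgeR, against 2.2% of all genes. For example, *Atp6v1b1* had a mean of 397 CPM in control and 472 CPM in knockout mice, a log2 fold change of 0.25 ± 0.36 (edgeR adjusted p = 0.998). Within Slc26a4-positive members, 8 pump genes lay above 0 and 10 below (median -0.08), and within Slc26a4-negative members 14 and 4 (0.18). Of 26 transport genes tested in members, 14 lay above 0 and 12 below (median 0.06). Among them, *Slc4a7* and *Slc26a7* had unadjusted p-values under 0.05 in edgeR, both lower. Within Slc26a4-negative members, *Slc26a7* did not. *Car12* had a mean of 3178 CPM in control and 3129 CPM in knockout mice. Hormone and salt signaling genes numbered 7 above and 13 below (median -0.09), transcription factors 8 and 15 (-0.22), Notch genes 10 and 3 (0.19), Wnt and adhesion genes 5 and 9 (-0.06), and immediate early and stress genes 4 and 2 (0.10). Of these, *Adora1* alone had an unadjusted p under 0.05. *Hmx2* gave 540, 515, 472 and 312 CPM, with both knockout mice lower and a log2 fold change of -0.41 ± 0.38 (edgeR adjusted p = 0.998).

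Marker lists of other cell types had medians farther from 0. All 6 type A genes had log2 fold changes below 0 (median -0.48) in members, of which control mouse 2 had the lowest Slc26a4-positive share. Within Slc26a4-negative members, 4 lay below 0 and 2 above (median -0.16). All 4 connecting tubule genes lay above 0 (median 1.85), with *Trpv5* and *Calb1* at an unadjusted p under 0.05, and 8 of 10 proximal tubule genes lay above 0 (median 0.59), with *Slc5a12* and *Slc34a1* at an unadjusted p under 0.05. *Top2a* and *Cenpf*, genes of dividing cells, had 10 UMIs each, all in 1 nucleus of control mouse 1. None of these genes had an adjusted p under 0.05 in edgeR.

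**Figure D5:**
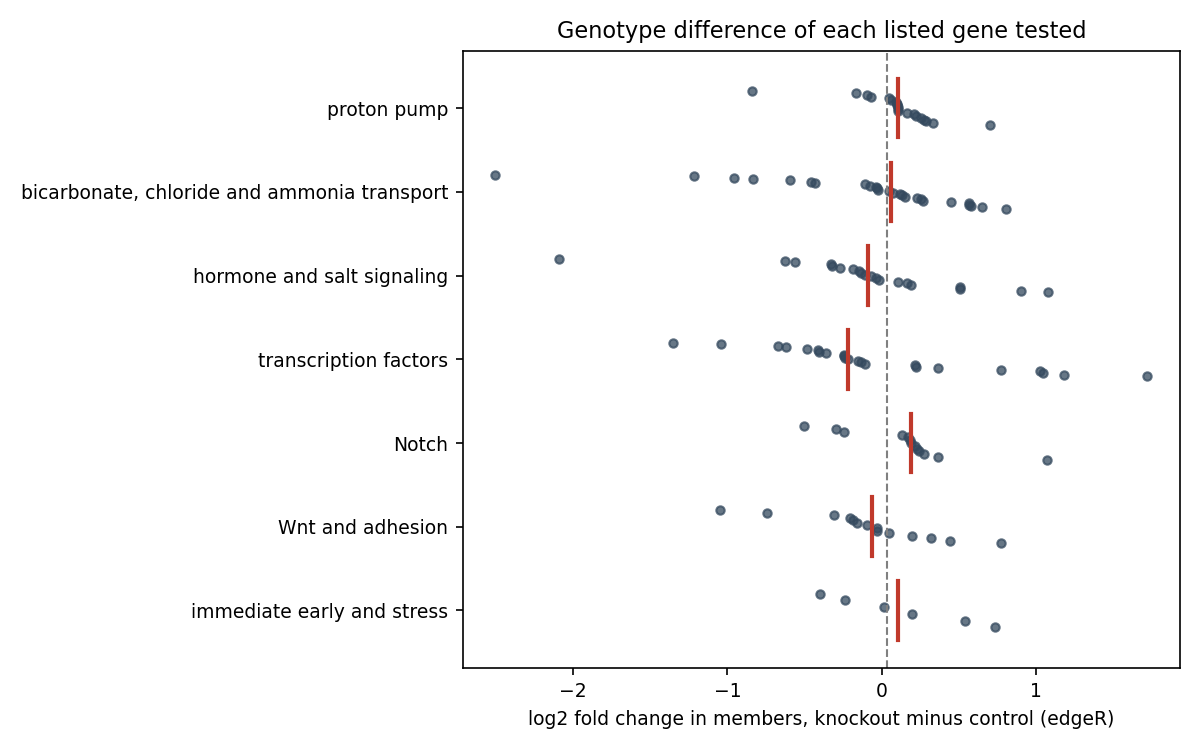
Log2 fold change of knockout minus control (edgeR, x axis) for each listed gene tested in members, 1 point per gene and 1 row per gene list. Red bars are the list medians, between -0.22 for transcription factors and 0.19 for Notch genes, and the dashed line is the median of all genes tested, 0.03.

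The genotype difference was set against that of the type A comparison nuclei in 1 model with the mouse as a term. Of 7188 genes with enough UMIs in both, edgeR called 0 (0%) at an adjusted p under 0.05 for the difference of the differences, and 320 (4.45%) had an unadjusted p under 0.05. In simulated counts this test recovered 13% of 4-fold changes, and small differences between the nuclei could not have been called.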

How the data were processed

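Nuclei were processed by the authors with 10x Chromium 3′ chemistry and Cell Ranger 3.0.2 on mm10 (Seurat 3.2.1.35 is also named in the submitters' processing notes). The deposited matrices hold raw UMI counts of 31053 genes in 6794880 barcodes per library, without normalization or a filter on cells. Here, each library was cut to its 10000 barcodes of highest UMI total, then to those with 501 to 3999 genes and under 5% mitochondrial UMIs. Members were found by the rule above. UMIs were summed per mouse, and genes with at least 10 UMIs were tested with edgeR 4.0.16 (quasi-likelihood, TMM, genotype only, Benjamini-Hochberg adjustment, called under 0.05); the 7 rule genes were not tested. Each library came from a separate mouse. CPM are UMIs per 1000000 UMIs of the summed nuclei, and ratios of levels add 10 CPM. Doublets were called by Scrublet in scanpy 1.11.5 at 0.8% per 1000 nuclei and kept, except in an alternative. DESeq2 1.42.0, no filter, other scalings, thinning to 1500 UMIs and each mouse left out were further alternatives, some chosen after seeing the data. Members and gene lists were chosen with earlier results of these data known. Genes named are those of the rule and lists, those leading each level comparison, per direction the 5 with the smallest p among genes whose groups did not overlap, and *Tfap2a*, *Tfap2b*, *Wnt9b* and *Alcam*. The tests were also run on simulated counts, which took library sizes, gene shares and dispersion from the real sums. Changed genes were drawn above a higher UMI threshold than the tests used. In members, 37 of 100 genes changed 4-fold were recovered, with 2 false calls among 10583. A count table and no reads were used, so strand and splicing were not analysed here. The values of 1 listed transport gene are not reported here.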

Additional observations from a re-analysis of the deposited data

How the results depend on the processing

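Genes called in members stayed at 0 under other scalings, filterByExpr, DESeq2, at least 3 UMIs of the 3 genes, under 1% mitochondrial UMIs and without called doublets, but were 10 without the filter on low counts, 38 with the replicate number as a block, and between 0 and 28 with 1 mouse left out: 28 without control mouse 1, 0 without control mouse 2, 14 without knockout mouse 1 and 9 without knockout mouse 2. The replicate numbers were not shown to pair the mice. Over 5986 genes, deviations of same-numbered mice correlated at 0.44 in members. The correlation was 0.20 in Slc26a4-positive members (4349 genes) and 0.31 in Slc26a4-negative members (2397 genes). In Slc26a4-positive members alone, the 0 calls became 1 with the block, 2 without the filter and 0 to 57 with 1 mouse left out (1 without control mouse 1, 0 without control mouse 2, 57 without knockout mouse 1, 15 without knockout mouse 2). In Slc26a4-negative members they became 31 with the block, 11 without the filter and 0 to 15 with 1 mouse left out (0 without control mouse 1, then 11, 15 and 10). The cause was not tested. The difference from type A comparison nuclei, with 0 genes called, gave between 3 and 13 with 1 mouse left out (3 without control mouse 1, 3 without control mouse 2, 13 without knockout mouse 1, 5 without knockout mouse 2). The difference in the share of all nuclei, -0.0828 percentage points, changed sign to 0.000924 with at least 3 UMIs of the 3 genes and 0.000352 at 1500 UMIs per nucleus. It was 0.0350 under 1% mitochondrial UMIs and 0.683 among nuclei with under 2 UMIs of the proximal tubule list (exact permutation p = 0.333). With 1 mouse left out it ran from -0.250 to 0.0846, the last without control mouse 2. The difference in the Slc26a4-positive share of members, 9.99 percentage points, ran from -10.3 without control mouse 2 to 30.3 without control mouse 1. *Alcam* changed from -0.19 to 0.017 on the log2 scale without nuclei carrying *Slc4a1*, *Aqp6* or *Kit*. Each named gene was also followed under each alternative, so that a gene counts more than once. Of these pairs of a gene and an alternative, 176 kept their direction and side of the threshold, 20 passed it and 1 changed direction. *Coch* passed it under 5 alternatives. The pairs include fits with 1 mouse left out. At this depth and number of mice, 2 of 100 simulated 2-fold changes were recovered in members.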

Other observations

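Some genes named for the knockout comparison within a group of members had like values in other nuclei of the same libraries. *AC149090.1* gave 29, 110, 17 and 16 UMIs in Slc26a4-negative members (mice in the order control 1, control 2, knockout 1, knockout 2), with a log2 fold change of -1.71 ± 0.42 (edgeR adjusted p = 0.809). In nuclei lacking *Slc26a4*, *Slc4a9* and *Insrr* it stood at 522, 378, 285 and 151 CPM. *Gm37245* was higher in knockout mice among Slc26a4-negative members (0, 1, 18 and 15 UMIs) and in those other nuclei (158 and 82.8 against 273 and 332 CPM). *Ttr*, which encodes transthyretin, was highest in knockout mouse 1 in both, with 176 CPM in members and 499 CPM in the other nuclei. *Kcnq3* stood between 0.610 and 1.15 CPM in the other nuclei of every mouse, too low to compare the genotypes there.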
